A study of Mus musculus with 4 samples.

Results

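The nuclear genes for the subunits of the respiratory chain and of ATP synthase were examined in intestinal crypts of wild-type (WT) and Vil-CREPTKO mice. The members were the protein-coding rows of the deposited count table whose symbol in GENCODE release M21 begins with Ndufa (assembly factors Ndufaf left out), Ndufb, Ndufc, Ndufs, Ndufv, Uqcr, Atp5 or Cox4 to Cox8, or is Sdha, Sdhb, Sdhc, Sdhd or Cyc1. This rule gave 86 members of 53845 rows: 38 of complex I, 4 of complex II, 9 of complex III, 18 of complex IV and 17 of complex V. A further 13 rows carried a similar symbol but were pseudogenes or noncoding and were left out.

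Crypts are the epithelial pits of the intestine that hold stem, dividing and Paneth cells. They were released from the intestine with EDTA, and RNA was sequenced from 2 WT and 2 Vil-CREPTKO mice, without injury or treatment. All mice were of the C57BL/6 strain. CREPT is the product of Rprd1b, a gene for a protein that binds RNA polymerase II. In Vil-CREPTKO mice an exon of this gene is flanked by loxP sites in both copies (CREPT fl/fl). Cre under the villin promoter removes that exon, and not the whole gene. This promoter acts in the intestinal epithelium and not in the immune or connective tissue cells that remain in a crypt preparation. The methods of the study give mice of both sexes aged 6 to 8 weeks. The breeding it describes crossed floxed mice with and without villin-Cre, so that WT pups of that cross are floxed and lack Cre. Whether the 2 sequenced WT mice came from it was not stated.

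The respiratory chain passes electrons from NADH (complex I) or succinate (complex II) through coenzyme Q, complex III and cytochrome c to oxygen (complex IV). The proton gradient that complexes I, III and IV build drives ATP synthase, or complex V. Most subunits are encoded in the nucleus, and a small set of core subunits of complexes I, III, IV and V is encoded in the mitochondrial genome, so that assembly needs transcripts of both genomes. In the intestinal epithelium both the dividing crypt cells and the absorptive enterocytes depend on mitochondria, and mitochondrial content differs between the cell types.

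Total counts were 47241049 to 49369315 per library, and the common biological coefficient of variation was 0.188. Rprd1b (ENSMUSG00000027651) was counted 3087 and 3030 times in the WT libraries against 1142 and 1424 times after deletion. Its fitted log2 fold change was -1.14 (SE 0.12), with an edgeR adjusted p of 0.0041. These counts cover the whole gene, and reads outside the removed exon were not separated. The members together made up 2.72% and 2.63% of all counts in WT crypts, beside 2.82% and 2.78% in Vil-CREPTKO crypts. Markers of other cells were counted as well. The 10 enterocyte markers summed to 15100 and 20000 CPM (counts scaled to the size of the library) in WT crypts against 26800 and 16200 CPM in Vil-CREPTKO, with all 10 higher in Vil-CREPTKO replicate 1 than in replicate 2. The 6 crypt markers summed to 5210 and 4560 CPM in WT crypts against 4090 and 6230 CPM in Vil-CREPTKO, with all 6 lower in Vil-CREPTKO replicate 1 than in replicate 2. Blood markers summed to 28.0 and 11.8 CPM in WT crypts against 66.0 and 16.6 CPM, fibroblast markers to 5.07 and 5.79 against 17.3 and 2.04 CPM, and immune markers to 208 and 145 against 156 and 123 CPM. Vil-CREPTKO replicate 1 was therefore the library with the most enterocyte, blood and fibroblast RNA and the least crypt marker RNA. In a bulk sample, fewer cells of a type and less RNA per cell cannot be told apart.

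Known regulators of this gene group include NRF1, the ETS factor GABP and YY1, and their letters were searched on both strands of the RefSeq promoters (GRCm38.p6, 250 bases before to 50 after the start). Of the 86 members, 69 had a promoter entry. CGCANGCG, the core searched for NRF1, was in 23 of them (33.3%, against 8.42% of all 27025 promoters). CCGGAAG, searched for ETS factors, was in 15 (21.7% against 9.12%) and AAGATGGC, searched for YY1, in 9 (against 2.88% of all). At least 1 of these motifs was in 40 members (58.0% against 18.1%). The motifs share no full match with each other, and a match is a description of the letters and not of binding. The 7 members printed here are those with a match in a stretch of up to 150 bases that lies outside every annotated exon. This stretch was taken within the 250 bases before the start and need not adjoin it. Between it and the start lay 1 (Uqcrh) to 85 bases (Ndufb4). The matched letters are in capitals and may be on either strand.
Ndufb4 (chr16:37654454-37654603, minus strand): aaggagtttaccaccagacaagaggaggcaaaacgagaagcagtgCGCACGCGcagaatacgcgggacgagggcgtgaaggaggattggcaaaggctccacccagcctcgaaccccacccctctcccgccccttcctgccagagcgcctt
Ndufs5 (chr4:123718203-123718352, minus strand): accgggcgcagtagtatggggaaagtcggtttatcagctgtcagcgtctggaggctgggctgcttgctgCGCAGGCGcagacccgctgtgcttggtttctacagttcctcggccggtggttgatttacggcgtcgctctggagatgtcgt
Uqcr11 (chr10:80406831-80406980, minus strand): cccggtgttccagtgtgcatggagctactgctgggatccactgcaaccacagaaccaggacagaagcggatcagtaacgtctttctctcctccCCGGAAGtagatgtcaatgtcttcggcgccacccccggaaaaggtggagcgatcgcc
Uqcrh (chr4:116075072-116075221, minus strand): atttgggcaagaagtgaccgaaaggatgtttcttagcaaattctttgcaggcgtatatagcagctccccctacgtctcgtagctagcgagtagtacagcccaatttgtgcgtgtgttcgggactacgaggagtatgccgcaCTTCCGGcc
Cox6a1 (chr5:115348982-115349129, minus strand): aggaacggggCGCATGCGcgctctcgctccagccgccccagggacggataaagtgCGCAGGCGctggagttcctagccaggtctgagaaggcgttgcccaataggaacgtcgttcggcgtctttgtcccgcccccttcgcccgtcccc
Atp5e (chr2:174464106-174464255, minus strand): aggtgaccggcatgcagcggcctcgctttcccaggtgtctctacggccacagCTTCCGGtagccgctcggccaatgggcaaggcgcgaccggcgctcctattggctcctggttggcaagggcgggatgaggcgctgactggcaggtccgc
Atp5h (chr11:115419963-115420112, minus strand): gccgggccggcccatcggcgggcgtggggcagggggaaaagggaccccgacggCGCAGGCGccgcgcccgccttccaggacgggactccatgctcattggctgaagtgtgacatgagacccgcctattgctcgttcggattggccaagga

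The 39 tested members with a motif had a median log2 fold change of 0.17 (-0.38 to 0.42) and the 27 with a promoter entry and no motif a median of 0.22 (-0.43 to 0.58). The difference was not tested. Among the members shown, Ndufs5 had a log2 fold change of 0.42 and Uqcr11, of complex III, one of -0.26.

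Of the 86 members, 80 had enough counts to be tested. Most of the others are isoforms known from other tissues: Cox8c and Cox7b2 were at 0 in all 4 libraries, Ndufa4l2 had 1 count in each, Cox8b had 6 counts in WT replicate 1 and 0 elsewhere, and Cox4i2 had 0 and 1 counts in WT and 6 and 1 in Vil-CREPTKO. Ndufs3, a core subunit of complex I (chromosome 2, 90894634 to 90904827), was listed at 0 and 0 counts in WT and 2 and 0 in Vil-CREPTKO. Its neighbours C1qtnf4, Kbtbd4, Celf1 and Rapsn were listed at 0 in every library as well, while Mtch2 and Psmc3 on either side of that stretch had 6231 to 7561 counts per library. The value of Ndufs3 was therefore not read as its level.

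No subunit passed an adjusted p of 0.05 between the genotypes, while most lay slightly higher in Vil-CREPTKO. In the quasi-likelihood test of edgeR, 0 of 80 were called lower and 0 higher. Over all 17504 genes tested, 2.29% were called lower and 0.423% higher. DESeq2 also called 0 lower and 0 higher, against 4.14% and 1.15% of the 15807 genes to which it gave an adjusted p, and its lowest adjusted p among the members was 0.054, for Ndufa4. At an unadjusted p under 0.05, edgeR gave 3 members lower (Ndufa2, Ndufb2 and Ndufc1), where the background was 9.76%, and 8 higher (Ndufb6, Ndufs5, Ndufa4, Ndufb8, Ndufa5, Ndufb3, Cox7a1 and Atp5j2), where it was 4.49%.

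The median log2 fold change of the 80 members was 0.18, beside -0.006 over all genes tested, and 68 of the 80 (85.0%) had a positive value, beside 49.1% of all genes. Both Vil-CREPTKO libraries were above both WT libraries at 56 members, where 21.0% of all genes were, and below both at 7, where 24.2% of all genes were. Relative to the mean of WT, the median member stood at -0.014 and 0.014 (log2) in the WT libraries, at 0.25 in Vil-CREPTKO replicate 1 and at 0.11 in replicate 2. Replicate 1 was above replicate 2 at 70 of the 80 members. Without Vil-CREPTKO replicate 1 the median was 0.11, with 62 of 80 positive. The other Vil-CREPTKO library alone was then above both WT libraries at 58 members, where 35.4% of all genes were, and below both at 14, where 36.3% of all genes were. With library-size scaling, under which the median of all genes was -0.098, it was 0.083, and 57 of 80 members were positive. The distance between the members and all genes was 0.18 there too.

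**Figure D1:**
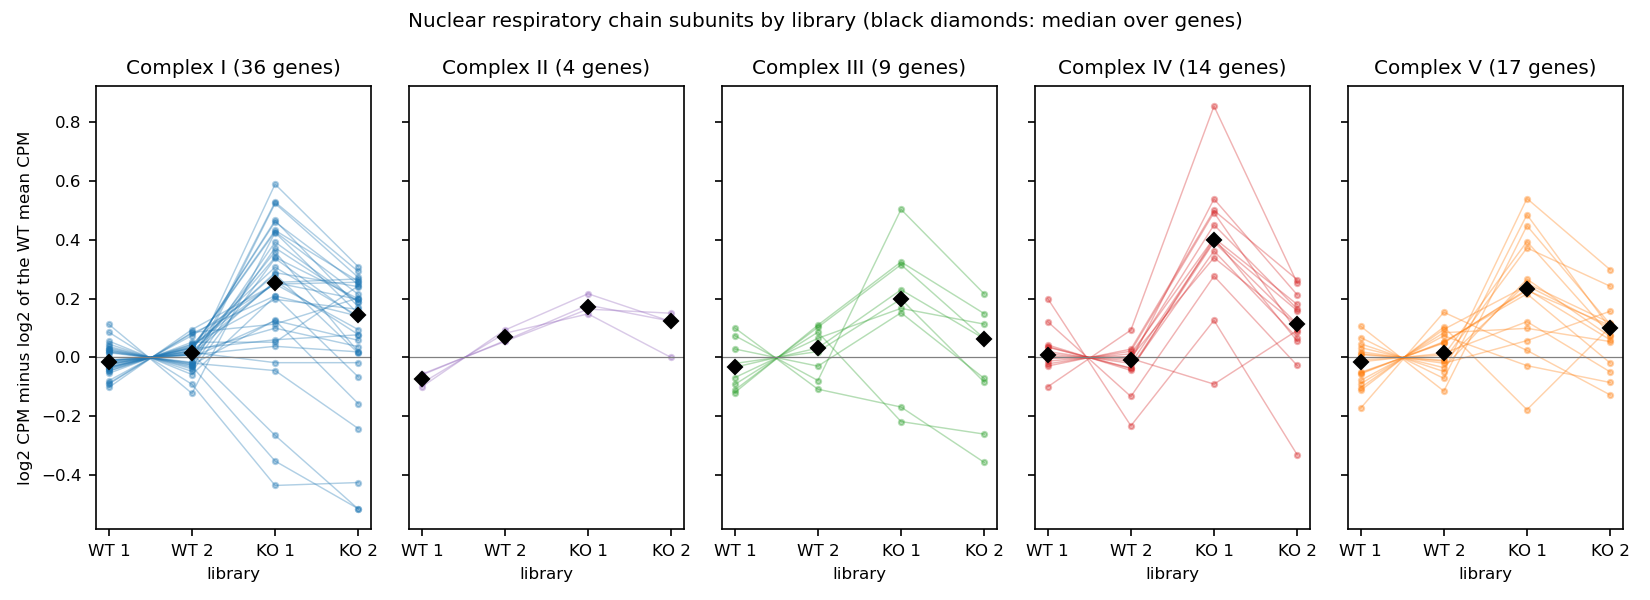
Level of each tested subunit in each library, as log2 CPM minus the log2 of its mean CPM in WT, in 1 panel per complex (lines join the libraries of 1 gene, black diamonds are medians over genes, KO is Vil-CREPTKO). In complex IV the median stood at 0.40 in KO replicate 1 and 0.11 in KO replicate 2, and Ndufa2, Ndufb2 and Ndufc1 run below the rest of complex I in both.

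Complex I takes electrons from NADH. Its 36 tested members had a median log2 fold change of 0.19 (-0.43 to 0.46), and 30 were positive (49.1% of all genes were). Both Vil-CREPTKO libraries were above both WT libraries at 27 (21.0% of all genes) and below both at 5 (24.2%). Levels per kilobase of transcript ran from 43.1 CPM for Ndufb2 to 512 CPM for Ndufa4 in WT.

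Ndufa4 (chromosome 6, 11900292 to 11907497, minus strand), first described in complex I and since assigned to complex IV, was at 316 and 309 CPM in WT crypts and 470 and 387 CPM in Vil-CREPTKO. The groups did not overlap, and the log2 fold change was 0.46 (SE 0.17, adjusted p by edgeR 0.238). Ndufb6 (chromosome 4, 40270591 to 40279421, minus strand), an accessory subunit of the membrane arm, was at 85.0 and 80.6 CPM in WT crypts against 119 and 100 CPM after deletion (log2 fold change 0.41, SE 0.13, adjusted p by edgeR 0.177). Ndufs5, an accessory subunit named here after its values were seen, was at 103 and 99.5 CPM against 146 and 124 CPM (log2 fold change 0.42, SE 0.13, adjusted p by edgeR 0.177). All 3 genes were highest in Vil-CREPTKO replicate 1.

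The accessory subunits Ndufa2, Ndufb2 and Ndufc1 lay in the other direction. Ndufa2 (chromosome 18, 36742332 to 36744557, minus strand) was at 124 and 119 CPM in WT crypts and 95.2 and 85.1 CPM in Vil-CREPTKO. Its log2 fold change of -0.43 (SE 0.12) had the lowest p of the 80 members (edgeR adjusted p 0.132). Ndufc1 (chromosome 3, 51404677 to 51408988, minus strand) was at 110 and 112 CPM against 92.4 and 77.7 CPM (log2 fold change -0.38, SE 0.13, adjusted p by edgeR 0.201). Ndufb2 (chromosome 6, 39592574 to 39603382, plus strand) was at 20.8 and 18.4 CPM against 14.5 and 14.6 CPM (log2 fold change -0.43, SE 0.15, adjusted p by edgeR 0.219). In each of the 3 genes both Vil-CREPTKO libraries were below both WT libraries. On the opposite strand, Ndufa2 overlaps Tmco6 (606 and 459 counts in WT, 462 and 570 in Vil-CREPTKO). Ndufb2 overlaps Braf in the same way (1190 and 1256 counts in WT, 966 and 1392 in Vil-CREPTKO). Members with a positive log2 fold change have such partners too, for example Ndufb6 with Smim27 and Atp5j with Gabpa. As the strand setting of the counting was not stated, reads of such pairs could have gone to either partner.

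The X-linked members were also read one by one because WT replicate 2 came from a female (863 CPM of Xist, against 0.299 to 0.529 CPM in the other libraries). Ndufa1, an accessory subunit of complex I, was at 151 and 153 CPM in WT crypts and 195 and 154 CPM in Vil-CREPTKO. Ndufb11 was at 152 and 156 against 165 and 158 CPM. Cox7b, of complex IV, was at 498 and 474 against 638 and 526 CPM. In none of the 3 did the female WT library differ from the other WT library by as much as Vil-CREPTKO replicates 1 and 2 differed from each other.

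**Figure D2:**
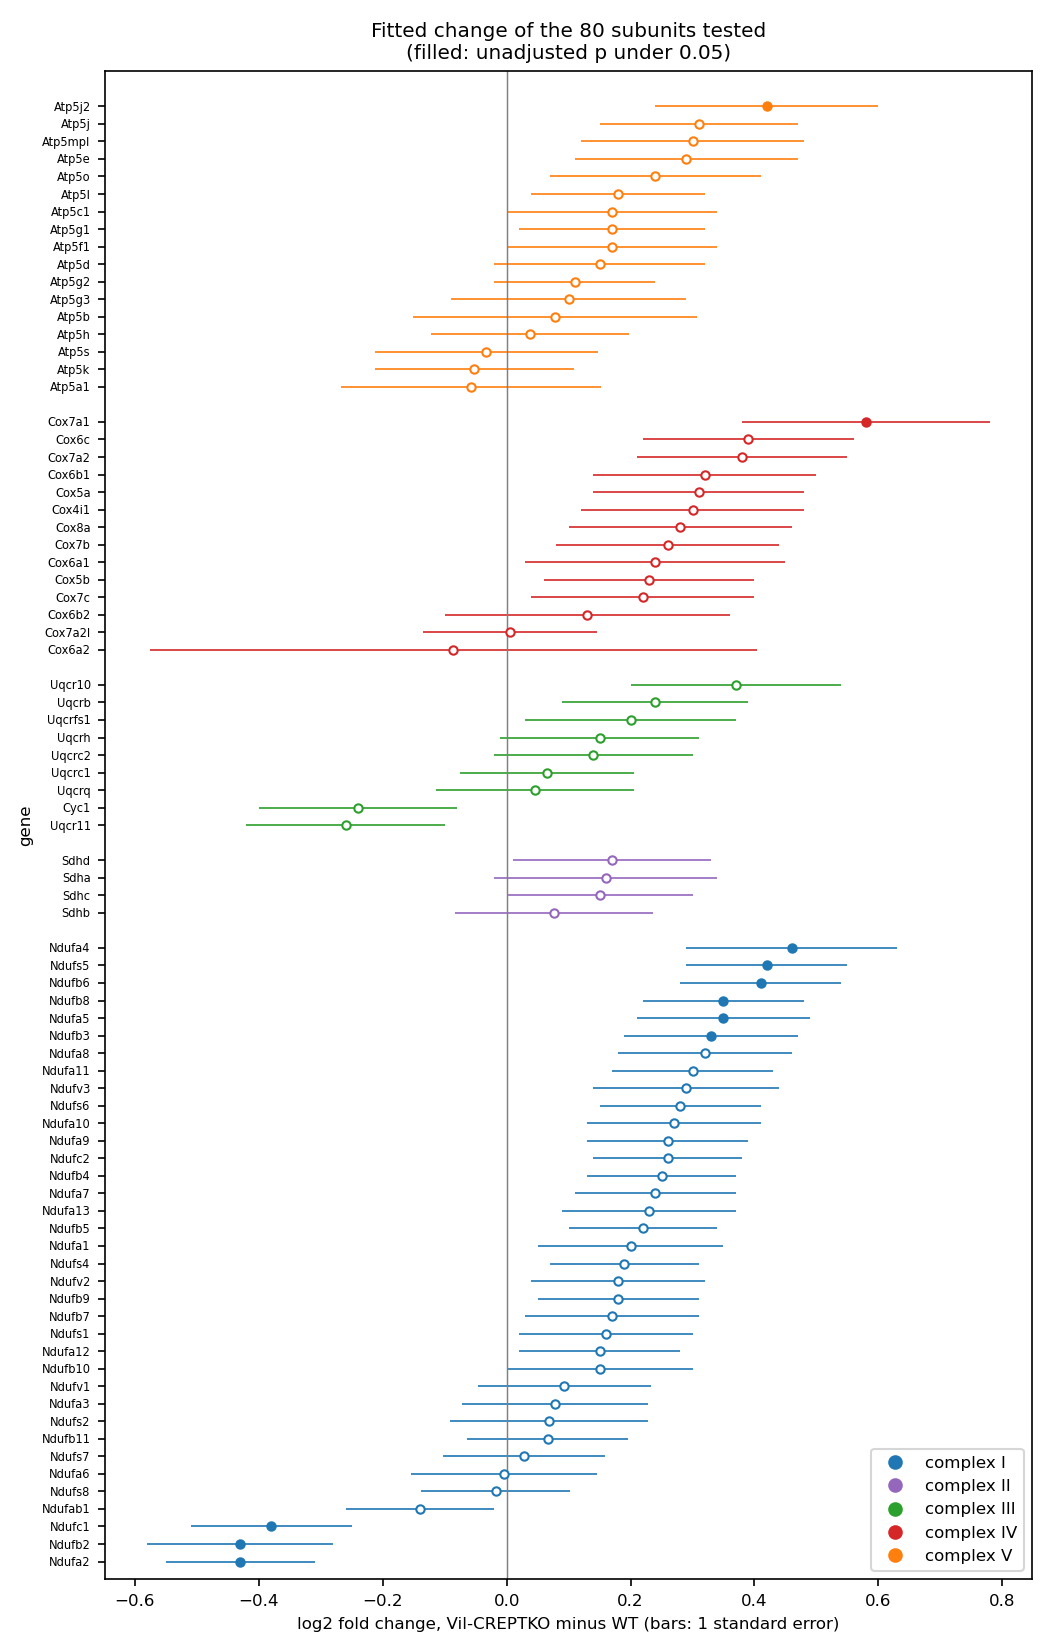
Fitted log2 fold change of the 80 tested subunits (Vil-CREPTKO minus WT, horizontal axis) by gene and complex, with bars of 1 standard error and filled points for an unadjusted p under 0.05. Values run from -0.43 (Ndufa2 and Ndufb2) to 0.58 (Cox7a1), and 68 of 80 lie to the right of 0.

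Complex II oxidises succinate and is at the same time an enzyme of the citric acid cycle. It is the only complex encoded wholly in the nucleus. Sdha, the flavoprotein subunit, was at 901 and 973 CPM in WT crypts and 1050 and 1040 CPM after deletion (log2 fold change 0.16, SE 0.18). Sdhd, a membrane anchor, was at 392 and 448 CPM against 488 and 457 CPM (0.17, SE 0.16), and Sdhc, the other anchor, at 296 and 321 against 349 and 336 CPM (0.15, SE 0.15). In these 3 genes the groups did not overlap. Sdhb, the iron-sulfur subunit, was at 305 and 343 CPM against 359 and 324 CPM (0.076, SE 0.16), and here they did. The adjusted p was 0.716 to 0.891 in all 4 (edgeR). All 4 were higher in WT replicate 2 than in WT replicate 1, and the median of the complex, 0.16, was 0.085 without WT replicate 1.

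Complex III passes electrons from coenzyme Q to cytochrome c. Its 9 members had a median log2 fold change of 0.14, which was 0.062 without Vil-CREPTKO replicate 1, 0.075 without WT replicate 1, 0.049 with library-size scaling and 0.07 after correction for GC content and length. Uqcr10, a small subunit, was at 309 and 278 CPM in WT crypts and 416 and 341 CPM after deletion (log2 fold change 0.37, SE 0.17, adjusted p by edgeR 0.371). Uqcr11, another small subunit, was at 365 and 316 CPM against 303 and 266 CPM (-0.26, SE 0.16, adjusted p by edgeR 0.543). The groups did not overlap in either gene, and the signs were opposite. The log2 fold change was 0.22 for Uqcr10 without Vil-CREPTKO replicate 1 and -0.15 for Uqcr11 without WT replicate 1. Cyc1, which encodes cytochrome c1 and is named here after its values were seen, was also below WT in both Vil-CREPTKO libraries (489 and 553 against 448 and 435 CPM, log2 fold change -0.24, SE 0.16). Uqcrq had the highest level per kilobase of transcript in the complex (978 CPM in WT crypts and 1010 CPM in Vil-CREPTKO) and a log2 fold change of 0.046 (SE 0.16), with overlapping groups.

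Complex IV, cytochrome c oxidase, had the highest median of the complexes with all 4 libraries, but not without Vil-CREPTKO replicate 1. Its 14 tested members had a median log2 fold change of 0.27 (-0.086 to 0.58), and 13 were positive (49.1% of all genes were). In the higher direction 11 did not overlap between the groups (21.0% of all genes), and none in the lower direction (24.2%). Relative to WT the median stood at 0.40 for replicate 1 and 0.11 for replicate 2 of Vil-CREPTKO, and without replicate 1 it was 0.11, beside 0.14 for complex I. With library-size scaling it was 0.17. The difference between complex IV and the other complexes was not tested.

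Several subunits of complex IV exist as isoforms of different tissues, and here the ubiquitous form was the more abundant one in each pair compared. Per kilobase of transcript, Cox6a1 was at 1780 CPM in WT, the highest of all members, while its muscle isoform Cox6a2 was at 1.05 CPM. Cox6b1 was at 766 CPM and its testis isoform Cox6b2 at 11.2 CPM. Cox4i1 was at 861 CPM and Cox8a at 1060 CPM, while Cox4i2, Cox8b and Cox8c had too few counts to be tested. The pair of Cox7a forms lay closest together: Cox7a2, the ubiquitous form, was at 471 CPM and Cox7a1, the form of heart and skeletal muscle, at 344 CPM per kilobase in WT.

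Cox7a1 (chromosome 7, 30184144 to 30186078, plus strand) had the largest log2 fold change of the members. It was at 126 and 144 CPM in WT, at 244 CPM in Vil-CREPTKO replicate 1 and at 161 CPM in replicate 2. All Vil-CREPTKO values were above WT, with the distance carried mostly by replicate 1. The log2 fold change was 0.58 (SE 0.20, 95% interval 0.13 to 1.04, adjusted p by edgeR 0.211). Without Vil-CREPTKO replicate 1 the log2 fold change was 0.25 (adjusted p by edgeR 0.659), and without replicate 2 it was 0.86 (adjusted p by edgeR 0.0165). The adjusted p was 0.0146 without the filter on low counts. The smooth muscle markers Acta2, Myh11, Actg2, Des and Cnn1 had 0 to 10 counts in each library, Tagln had 20 to 33, and the 6 markers together summed to 0.784 and 0.874 CPM in WT crypts beside 0.713 and 0.591 CPM after deletion.

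The ubiquitous forms had smaller log2 fold changes than Cox7a1. Cox7a2 was at 313 and 308 CPM in WT crypts and 451 and 360 CPM after deletion (log2 fold change 0.38, SE 0.17). Cox6b1 was at 473 and 474 against 647 and 531 CPM (0.32, SE 0.18), Cox4i1 at 636 and 647 against 850 and 727 CPM (0.30, SE 0.18) and Cox8a at 590 and 574 against 766 and 650 CPM (0.28, SE 0.18). Cox6a1 was at 1050 and 989 CPM against 1350 and 1060 CPM (0.24, SE 0.21). In each of these 5 genes the groups did not overlap, replicate 1 was the highest library, and the edgeR adjusted p was 0.355 to 0.675. Without replicate 1 their log2 fold changes were 0.21 for Cox7a2, 0.16 for Cox6b1, 0.18 for Cox4i1, 0.16 for Cox8a and 0.051 for Cox6a1. Cox7a2l, known for its role in joining complexes III and IV, had a log2 fold change of 0.0052 (SE 0.14) and was the only one of the named ubiquitous forms that was lower in Vil-CREPTKO replicate 1 (193 CPM) than in replicate 2 (219 CPM). The rare forms Cox6a2 (-0.086, SE 0.49) and Cox6b2 (0.13, SE 0.23) overlapped between the groups.

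Complex V makes ATP. Its 17 members had a median log2 fold change of 0.17 (-0.057 to 0.42), which was 0.094 without Vil-CREPTKO replicate 1. Atp5b, the catalytic beta subunit, had the highest level per kilobase of transcript of the complex (1430 CPM in WT) and was at 2580 and 2910 CPM in WT crypts and 2940 and 2850 CPM after deletion (log2 fold change 0.078, SE 0.23). Its groups overlapped. Atp5j2, a subunit of the membrane part, was at 539 and 505 CPM against 759 and 642 CPM (0.42, SE 0.18, adjusted p by edgeR 0.318), and Atp5j, a subunit of the stalk, at 388 and 383 against 499 and 456 CPM (0.31, SE 0.16, adjusted p by edgeR 0.435). The groups did not overlap in either gene. Atp5g1, Atp5g2 and Atp5g3 encode the same mature c-ring protein. Per kilobase of transcript they were at 497, 335 and 1160 CPM in WT, and their log2 fold changes were 0.17 (SE 0.15), 0.11 (SE 0.13) and 0.10 (SE 0.19). How reads shared by such related genes were divided was not stated.

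The mitochondrial genome encodes 13 further subunits of complexes I, III, IV and V. Their share of all counts was 6.756% and 6.605% in WT crypts, 10.01% in Vil-CREPTKO replicate 1 and 7.48% in replicate 2. All 13 had a positive log2 fold change, with a median of 0.52, or 0.19 without Vil-CREPTKO replicate 1. Of the 13, edgeR called 2 higher (0.423% of all genes were) and DESeq2 3 (1.15% of all genes were). The third by DESeq2 was mt-Nd1 (log2 fold change 0.79, SE 0.33, adjusted p 0.316 by edgeR and 0.00154 by DESeq2). Of the 2 called by both tools, mt-Nd3, a subunit of complex I, rose from 53.0 and 50.5 CPM to 114 and 87.2 CPM (log2 fold change 0.96, SE 0.15, adjusted p by edgeR 0.0129), and mt-Atp6, of ATP synthase, rose from 96.8 and 135 CPM to 305 and 219 CPM (1.18, SE 0.21, adjusted p by edgeR 0.0257). The call of mt-Atp6 was lost after correction for GC content and length (edgeR adjusted p 0.096). This gene overlaps mt-Atp8 (log2 fold change 0.20, SE 0.28) and mt-Co3 (0.098, SE 0.31) on the same strand, and neither was called. How reads in such overlaps were divided was not stated. Both mt-Nd3 and mt-Atp6 were far below mt-Co1, which was at 28500 and 31300 CPM in WT. How reads shared with nuclear copies of the mitochondrial genome were counted was not stated either.

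For each count of a mitochondrially encoded subunit there were 0.402 and 0.399 counts of the nuclear members in WT crypts. The ratio was 0.282 for Vil-CREPTKO replicate 1 and 0.372 for replicate 2. Both Vil-CREPTKO values were below WT. The log2 of this ratio was -1.32 ± 0.0094 (SD, n = 2) in WT and -1.63 ± 0.28 (SD, n = 2) in Vil-CREPTKO, a difference of -0.31 (two-sided exact permutation p 0.333, the smallest that 2 against 2 libraries allow). The difference was -0.11 without Vil-CREPTKO replicate 1 and -0.51 without replicate 2. The library with the lowest ratio was also the one with the highest sum of enterocyte markers. The other libraries did not follow this order. WT replicate 2 had 20000 CPM of these markers at a ratio of 0.399, and Vil-CREPTKO replicate 2 had 16200 CPM at 0.372. The part of the enterocyte markers in this result was not tested.

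**Figure D3:**
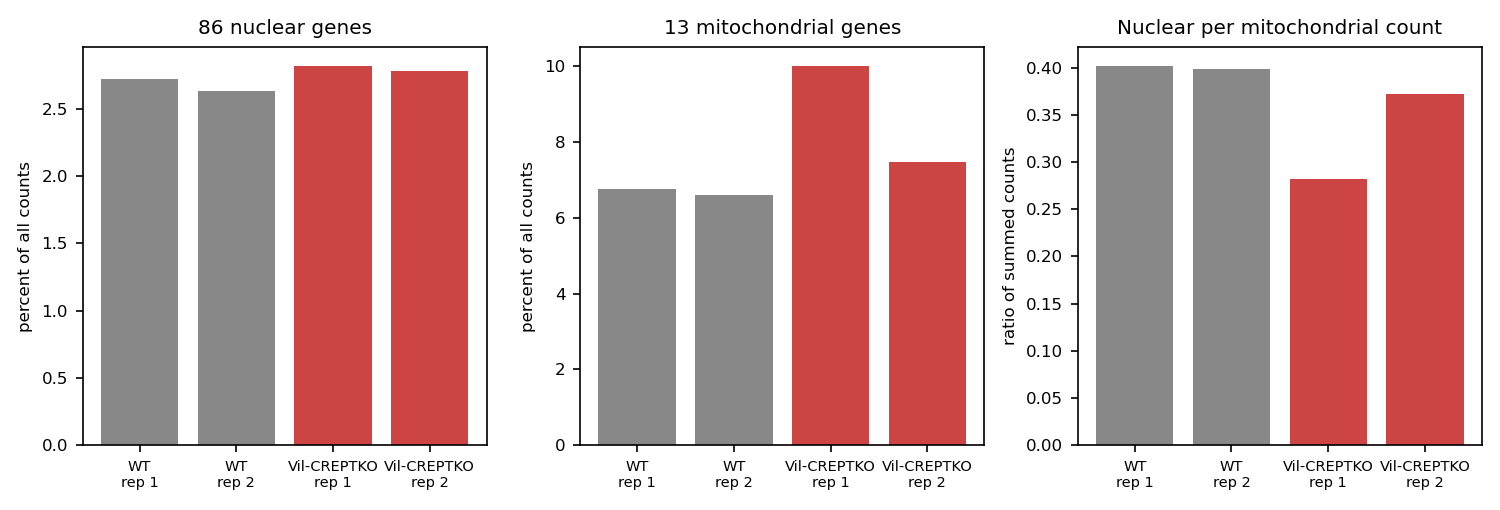
Percent of all counts on the 86 nuclear subunits and on the 13 mitochondrially encoded subunits, and the ratio of both sums, with 1 bar per library. The nuclear share is 2.63% to 2.82% in the 4 libraries, while the mitochondrial share is 10.01% in Vil-CREPTKO replicate 1 and 6.605% to 7.48% in the others.

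Genes that build the complexes without being part of them gave called decreases. Of 52 tested assembly factors, 6 were lower and 0 higher at an adjusted p under 0.05 (the shares of all genes were 2.29% and 0.423%), while their median log2 fold change was 0.015 and 29 were positive. Ndufaf3, an assembly factor of complex I, fell from 17.1 and 21.7 CPM in WT to 6.3 and 6.03 CPM after deletion (log2 fold change -1.65, SE 0.18, adjusted p by edgeR 0.00435). Ndufaf8, of complex I as well, fell from 49.4 and 48.1 CPM to 26.1 and 27.0 CPM (-0.88, SE 0.12, adjusted p by edgeR 0.00835). The complex IV factor Coa4 fell from 12.7 and 14.1 CPM to 7.04 and 5.78 CPM (-1.06, SE 0.19, adjusted p by edgeR 0.0244). The groups did not overlap in any of these 3 genes.

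Tmem186, a protein of the complex I assembly machinery, fell from 40.5 and 34.8 CPM to 23.6 and 23.7 CPM (log2 fold change -0.67, SE 0.14, adjusted p by edgeR 0.0394). The other two, named because they complete the count, were the complex IV factors Pet100 (-0.96, SE 0.19, adjusted p by edgeR 0.0398) and Coa6 (-0.68, SE 0.14, adjusted p by edgeR 0.0464). Over the main setting and its alternatives, 15 in all, the adjusted p was over 0.05 in 7 for Coa6, in 5 for Tmem186, in 2 for Pet100 and in 1 for Coa4, and in none for Ndufaf3 and Ndufaf8. Coa4 lost its call without WT replicate 2 (adjusted p 0.051), and Coa6 lost its call without any single one of the 4 libraries (adjusted p up to 0.14). Tmem186 lost its call without WT replicate 1 (adjusted p 0.136) and without either Vil-CREPTKO library. Tmem186 overlaps Pmm2, which went from 8458 and 8332 counts to 3234 and 3341, on the opposite strand. Ndufaf3 overlaps Impdh2 on the opposite strand, which had 4235 and 3287 counts in WT and 2366 and 3261 in Vil-CREPTKO. Coa6 overlaps Tarbp1 in the same way (699 and 635 against 464 and 734 counts), and Pet100 overlaps Pcp2 (1 to 11 counts). How reads of these pairs were divided was not stated.

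**Figure D4:**
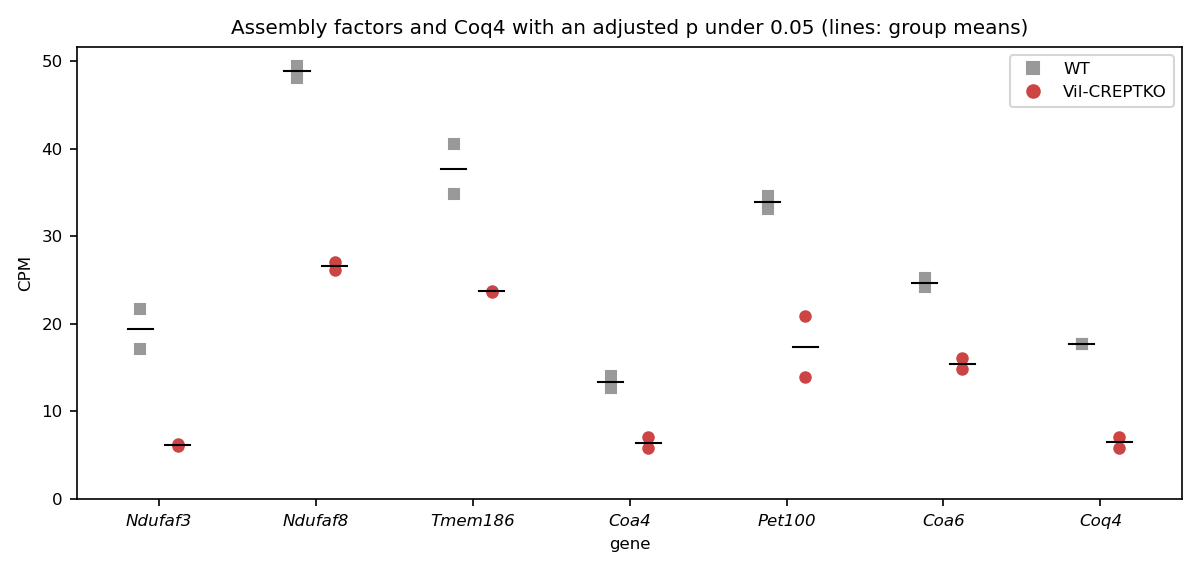
CPM of the 6 assembly factors and of Coq4 with an adjusted p under 0.05, with 1 point per library and a line at each group mean. In all 7 genes both Vil-CREPTKO libraries lie below both WT libraries, for example 6.3 and 6.03 against 17.1 and 21.7 CPM for Ndufaf3.

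Of 12 tested genes for the mobile carriers and the synthesis of coenzyme Q, edgeR called 1 lower, where 2.29% of all genes were. This was Coq4, needed to make coenzyme Q. It fell from 17.7 and 17.7 CPM in WT to 7.09 and 5.84 CPM (log2 fold change -1.45, SE 0.18, adjusted p by edgeR 0.00596). Coq4 overlaps Trub2 on the opposite strand, and Trub2 went from 882 and 997 counts in WT to 280 and 302 counts. Of 77 tested genes of the mitochondrial ribosome, which translates the mitochondrially encoded subunits, edgeR called 3 lower and 0 higher, with a median of 0.041, and DESeq2 6 lower and 0 higher, where 2.29% and 4.14% of all genes were called lower by these tools. The 3 by edgeR were Mrpl17 (-1.50, SE 0.14, adjusted p by edgeR 0.00229), Mrps2 (-0.97, SE 0.13, adjusted p by edgeR 0.00812) and Mrpl41 (-0.75, SE 0.14, adjusted p by edgeR 0.026). Mrpl41 lost its call without WT replicate 2 (adjusted p 0.092) or without Vil-CREPTKO replicate 1. DESeq2 added Mrpl49, Mrpl43 and Mrpl54, with adjusted p of 0.0247, 0.0327 and 0.0496.

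Other lists of energy metabolism held no call by edgeR and 1 by DESeq2. Over all genes tested, 9.76% were lower and 4.49% higher at an unadjusted edgeR p under 0.05. The shares called lower and higher were 2.29% and 0.423% by edgeR and 4.14% and 1.15% by DESeq2. None of 17 genes for mitochondrial biogenesis and expression of the mitochondrial genome passed by edgeR or DESeq2 (1 lower and 0 higher at an unadjusted p under 0.05, median log2 fold change 0.027), and those with the lowest p were Polg (-0.32, SE 0.12) and Polg2 (0.32, SE 0.17), which encode the subunits of the mitochondrial DNA polymerase. Of 18 genes for pyruvate dehydrogenase and the citric acid cycle, 0 passed by edgeR and 1 by DESeq2 (2 lower and 0 higher at an unadjusted edgeR p under 0.05). The list had a median of 0.16, and the lowest p belonged to Idh3g (-0.52, SE 0.13, adjusted p 0.0908 by edgeR and 0.0253 by DESeq2) and Idh2 (-0.34, SE 0.13). Of 15 glycolysis entries, which hold Aldoa under 2 gene identifiers, 0 passed by either tool (3 lower and 0 higher at an unadjusted p under 0.05, median 0.086). The lowest p belonged to Gapdh (-2.05, SE 0.59) and Pfkm (-0.58, SE 0.2). Gapdh was set apart by WT replicate 2, with 105 CPM against 20.2 CPM in WT replicate 1 and 17.3 and 12.9 CPM in Vil-CREPTKO. Among 6 genes of transport across the mitochondrial membranes 0 passed by either tool and 0 had an unadjusted p under 0.05 (median 0.15). Vdac2 was at 0.27 (SE 0.18) and Slc25a4 at -0.29 (SE 0.19). Of 80 cytosolic ribosomal proteins, which share short transcripts with the members, 1 was called higher by edgeR (Rpl7a, 0.98, SE 0.14, adjusted p by edgeR 0.0105), and the median was 0.093. DESeq2 called 1 higher and 1 lower (Rpl7l1, -0.52, adjusted p by DESeq2 0.0215).

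**Figure D5:**
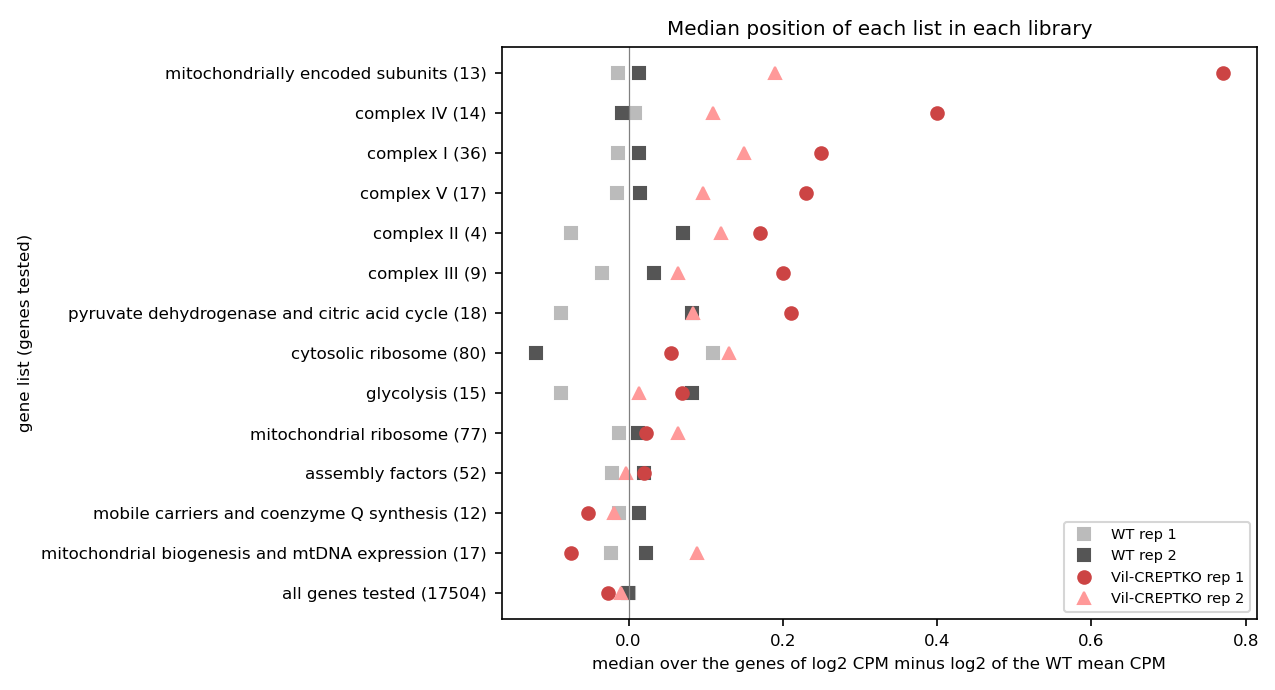
Median over the genes of each plotted list of log2 CPM minus the log2 of the mean CPM in WT, with 1 symbol per library and the number of tested genes in brackets. The plotted lists leave out the cell type markers and the genes of membrane transport. In Vil-CREPTKO replicate 1 the mitochondrially encoded subunits (0.77) and complex IV (0.40) stand farthest to the right. Pyruvate dehydrogenase and the citric acid cycle stand at 0.21 there and at 0.083 in replicate 2. The assembly factors and the mitochondrial ribosome lie near 0 in all libraries.

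The members also shared features that the rule did not use. Their transcripts were short, with a median length of 751.5 bases against 2431 over all genes tested, and their median GC content was 51.8% against 50.1%. They lay on 19 chromosomes. Of the 80 tested members, 36 overlapped another annotated gene, 28 of them on the opposite strand, and 22 had a divergent neighbour starting within 1000 bp. Such neighbours were not counted over all genes, so these counts are not shown to be particular to the members. Across the 80 members, Spearman's rho of transcript length with the log2 fold change between genotypes was -0.22, with the difference between WT replicates 2 and 1 it was 0.52, and with that between Vil-CREPTKO replicates 1 and 2 it was -0.51. Over all genes these values were -0.047, 0.10 and -0.14. The genes share the same 4 libraries, and the part of transcript length in the differences was not tested beyond the correction for GC content and length, which gave a median of 0.16 for the members.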

How the data were processed

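The authors deposited whole-number read counts per gene, in a table with a column for each of the 4 libraries. The submitters' notes and the study's methods name CASAVA 1.8, Bowtie2 and RSEM on GRCm38.p6. Other versions, the annotation and the strand setting were not given in the sources used here, and the methods name BGISEQ sequencing while the labels name Illumina library protocols. Groups and replicate numbers came from the sample titles. The study speaks of biological replicates, 2 per genotype.

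Of 53845 rows, 53360 matched GENCODE M21, which gave symbols, coordinates and lengths, and 380 were unnamed loci, kept in the fit. Genes kept by filterByExpr (17504) were scaled by TMM and fitted with edgeR 4.0.16 (quasi-likelihood F test, two-sided, R 4.3.3), with p-values adjusted over all of them by the Benjamini-Hochberg method. A call is an adjusted p under 0.05. CPM are TMM-scaled. Level per length divides CPM by the principal transcript's length. Intervals are 95%. A count of 0 allows at most 3 counts (0.0588 to 0.069 CPM, counting error only). Replicates differed beyond sampling noise (chi-square per gene 49.8 in WT and 70.1 in Vil-CREPTKO). Scripts were tested on simulated data.

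The members, gene lists and tests were chosen with earlier results of these data known. Named by rule were the 2 members of lowest p and the highest level per length in each complex, the 3 largest changes in each direction, isoform sets, X-linked members, and from each other list up to 4 called genes or otherwise the 2 of lowest p. Alternatives were DESeq2 1.42.0, RLE, upper-quartile and library-size scaling, mitochondrial genes left out, 2 other filters on low counts, a likelihood ratio test, a replicate block, a loess correction for GC content and length, the study's fold change threshold, and each library left out. Counts of genes without overlap between groups were tried under other scalings after the data had been seen.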

Additional observations from a re-analysis of the deposited data

How the results depend on the processing

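The comparison rests on 2 libraries per genotype, and leaving out Vil-CREPTKO replicate 1 lowered the median of the members from 0.18 to 0.11. No setting called a member lower. Higher calls were 0 except 1 (Cox7a1) without the filter on low counts, and 0 to 1 with a library left out. Library-size scaling gave medians of 0.083 for the members, 0.095 for complex I, 0.063 for complex II, 0.049 for complex III, 0.17 for complex IV and 0.072 for complex V. With a library left out the medians were 0.11 to 0.26 for the members, 0.11 to 0.41 for complex IV and 0.19 to 0.78 for the mitochondrially encoded subunits, and the log2 ratio of nuclear to mitochondrial counts differed by -0.51 to -0.11 between the genotypes. Members below WT without overlap were 4 with upper-quartile scaling (21.9% of all genes) and 8 to 14 with a library left out (36.0% to 40.0% of all genes), and those above WT were 60 (24.8%) and 57 to 67 (34.0% to 35.4%). Under library-size scaling, 10 members were below WT without overlap (29.8% of all genes) and 41 above (11.8%). The causes were not tested.

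Of 300 values of the 30 named members with all libraries kept, 292 held their direction and side of the threshold, 1 passed it (Cox7a1) and 7 reversed, all near 0: with library-size scaling Atp5b (-0.013), Cox7a2l (-0.083), Ndufb11 (-0.029), Sdhb (-0.018) and Uqcrq (-0.054), and with the GC content and length correction Cox7a2l (-0.009) and Uqcrq (-0.0055). Of 120 values with a library left out, 9 reversed. Their ranges were -0.008 to 0.17 for Atp5b, -0.022 to 0.22 for Atp5g3, -0.33 to 0.15 for Cox6a2, -0.03 to 0.28 for Cox6b2, -0.086 to 0.093 for Cox7a2l, -0.0093 to 0.17 for Sdhb and -0.072 to 0.16 for Uqcrq. Whether the replicate numbers pair the samples was not stated. Over the genes tested, the deviations of the same-numbered libraries from their group means had a correlation of 0.0014. This value cannot decide whether such libraries shared a day or a litter. With a replicate block, 0 members were called lower and 0 higher, the median was 0.18 for the members and 0.50 for the mitochondrially encoded subunits, and over all genes 452 were lower and 106 higher, against 400 and 74 without it.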
